A study of Mus musculus with 4 samples.

Results

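Zinc finger genes named Zfp and followed by a number formed 26 of the 1640 protein-coding genes listed with an RREB1-3V5 peak in mouse cerebellum. The rule took the rows of the peak table whose symbol begins with Zfp and whose type is protein-coding. It used no peak location, although the family was picked with earlier results of these data known. The table held 1933 rows in all, and 1614 other protein-coding rows served for comparison. One more Zfp row, Zfp572, was typed as a pseudogene and was not a member.

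The study precipitated chromatin of whole cerebellum with a V5 antibody from 2 mice of 3 weeks, 1 female and 1 male, that were not pooled, and made an input library from the lysate of each, giving 2 RREB1-3V5 ChIP samples and 2 Input samples. All 4 libraries came from Tg(PCP2-Rreb1/3V5)20/J animals, which carry the V7 transcript of Rreb1 with 3 V5 tags under the Purkinje cell promoter Pcp2, so no sample lacked the transgene. RREB1 is itself a zinc finger transcription factor, and the tagged protein was made from the transgene in addition to the endogenous one. The deposited result was 1 merged peak list in which each gene appears once, with the position of its peak, the kind of region and the distance to the nearest transcription start. It held no read count, height or replicate, so depth, spread between animals and enrichment over input could not be given for any gene, and every interval below covers counting error only. A single base stood for the peak in 1911 of the 1933 rows, and which point of the peak it marks was not given. Of 3043 peak numbers 1110 had no row, and further peaks near these genes may be among them. Both listed neighbours in number were present for 13 of the 26 Zfp peaks (50.0%) and for 602 of the 1614 other peaks (37.3%). They were present for 10 of 16 Zfp peaks at promoters (62.5%) and 3 of 10 elsewhere (30.0%). For the other genes these shares were 48.1% and 30.6%. Kinds of region below are therefore those of the listed peak of a gene and not of all its peaks.

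Zfp is the mouse prefix for zinc finger proteins, most of them of the C2H2 type, in which cysteine and histidine pairs hold a zinc ion and arrays of fingers read DNA. The largest subgroup also carries a KRAB box, a domain that recruits the corepressor TRIM28 (KAP1) and leads to heterochromatin over target sequences, many of which are retroelements. KRAB zinc finger genes arose by repeated duplication and lie in clusters along mammalian chromosomes. Other Zfp proteins have no KRAB box, and some of these regulate neural development, bind RNA or act as chromatin cofactors.

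A short element typical of promoters bound by the zinc finger factor ZNF143 (ACTACA, 2 bases of any kind, TCCC) occurred in the 200 bp around 7 of the 26 Zfp peaks. It was looked for after the printed sequences had been read, so its counts are a description. Its 9 copies are shown because they lay at the peaks of KRAB genes on 2 chromosomes. They are printed from GRCm38 (mm10), 5′ to 3′ on the strand that reads as the element, which stands in capitals with 9 flanking bases on each side. The copies lie at chr13:67553158-67553187 (plus strand, Zfp748), chr13:67729171-67729200 (plus, Zfp65), chr7:6343949-6343978 (plus, Zfp583), chr7:24112162-24112191 and chr7:24112256-24112285 (both minus, Zfp112), chr7:24254661-24254690 and chr7:24254717-24254746 (both minus, Zfp108), chr7:27689367-27689396 (plus, Zfp607b) and chr7:30051390-30051419 (minus, Zfp14).
Zfp748: caacggaagACTACACTTCCCacaagtctg
Zfp65: attgttgggACTACATCTCCCacaaatcag
Zfp583: ctatcttggACTACATTTCCCgttgtccct
Zfp112 first copy: gggtcatgaACTACATTTCCCagaattttc
Zfp112 second copy: gattcccaaACTACATTTCCCaaccggaag
Zfp108 first copy: ttttctgggACTACATTTCCCagaacgaga
Zfp108 second copy: ggctccagaACTACAATTCCCagaatgcct
Zfp607b: gacaaggggACTACATTTCCCaggcagcat
Zfp14: ccaccatggACTACATTTCCCacaggcctc

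Whole 200 bp windows around 4 peak positions are shown as examples, 2 from promoters and 2 from other regions. They are given on the plus strand of GRCm38, with CATCTG (the E-box read by NeuroD-type factors), CCGGAAG (the core read by ETS factors) and the ZNF143-type element in capitals at the promoters, on either strand, and with CATCTG in capitals elsewhere. The windows are chr13:67729056-67729255 and chr7:27689276-27689475 at the promoters of Zfp65 and Zfp607b, chr2:77815816-77816015 in the first intron of Zfp385b and chr4:55122045-55122244 in intergenic sequence beyond Zfp462.
Zfp65 promoter: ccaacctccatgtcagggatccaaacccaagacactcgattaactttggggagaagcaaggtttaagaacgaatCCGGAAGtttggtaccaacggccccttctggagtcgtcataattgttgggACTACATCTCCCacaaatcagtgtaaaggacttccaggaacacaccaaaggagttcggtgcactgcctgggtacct
Zfp607b promoter: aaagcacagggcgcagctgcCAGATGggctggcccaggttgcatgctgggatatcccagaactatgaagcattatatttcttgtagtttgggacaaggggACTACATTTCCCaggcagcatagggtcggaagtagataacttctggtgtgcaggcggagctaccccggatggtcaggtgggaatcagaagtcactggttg
Zfp385b intron: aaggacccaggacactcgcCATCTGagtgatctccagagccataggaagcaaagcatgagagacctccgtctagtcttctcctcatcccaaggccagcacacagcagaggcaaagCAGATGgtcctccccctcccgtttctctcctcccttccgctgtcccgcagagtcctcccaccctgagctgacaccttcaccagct
Zfp462 intergenic: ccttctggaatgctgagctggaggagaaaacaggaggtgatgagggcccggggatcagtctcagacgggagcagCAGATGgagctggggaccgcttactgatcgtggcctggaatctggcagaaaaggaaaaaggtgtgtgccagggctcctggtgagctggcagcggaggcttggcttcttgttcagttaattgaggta
The Zfp65 window held an ETS core and a ZNF143-type element, and the Zfp607b window held an E-box and a ZNF143-type element. The windows of Zfp385b and Zfp462 held E-boxes alone of these 3.

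Most Zfp peaks lay at the promoter of their gene. A promoter, taken as 1 kb before a transcription start and 100 bp after it, held 16 of the 26 Zfp peaks, 7 were intergenic, 2 were in introns and 1 was in a 5′ untranslated exon, while none lay in a coding exon, a 3′ untranslated exon or at a gene end. The promoter share was 61.5% (Wilson 95% interval 42.5 to 77.6%) for Zfp genes and 38.4% (36.1 to 40.8%) for the other protein-coding genes, an odds ratio of 2.57 (95% interval 1.15 to 5.50). It missed the threshold after adjustment over the 5 comparisons made (Fisher's exact test, two-sided p = 0.0239, adjusted p = 0.0597). Introns held 7.69% (2.14 to 24.1%) of Zfp peaks and 32.9% (30.7 to 35.2%) of the other peaks, and this lower share passed (odds ratio 0.170, 0.0564 to 0.767, Fisher's exact test, adjusted p = 0.0255). The odds ratio for introns was 0.625 (interval 0.0980 to 4.08, Fisher's exact test, adjusted p = 1) when only the 17 genes of other DNA-binding zinc finger prefixes were the comparison, of which 2 had an intronic peak. The promoter ratio against the same 17 genes was 2.29 (interval 0.653 to 7.42, exact test, adjusted p = 1), with 7 of them at a promoter.

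Intergenic sequence held 26.9% (13.7 to 46.1%) of Zfp peaks and 24.3% (22.3 to 26.4%) of the other peaks, with an odds ratio of 1.15 and an interval from 0.512 to 2.80 (Fisher's exact test, adjusted p = 1). Other exons and gene ends held 3.85% of Zfp peaks and 4.40% of the other peaks (odds ratio 0.869, 0.241 to 6.70, Fisher's exact test, adjusted p = 1). The intervals of both ratios were wide, and neither difference was detectable with 26 genes. Zfp genes with a peak were shorter than the others, with a median span of 24.0 kb against 38.6 kb, and the other genes with an intronic peak had a median of 78.5 kb. The part of gene length in the intron share was not tested.

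**Figure D1:**
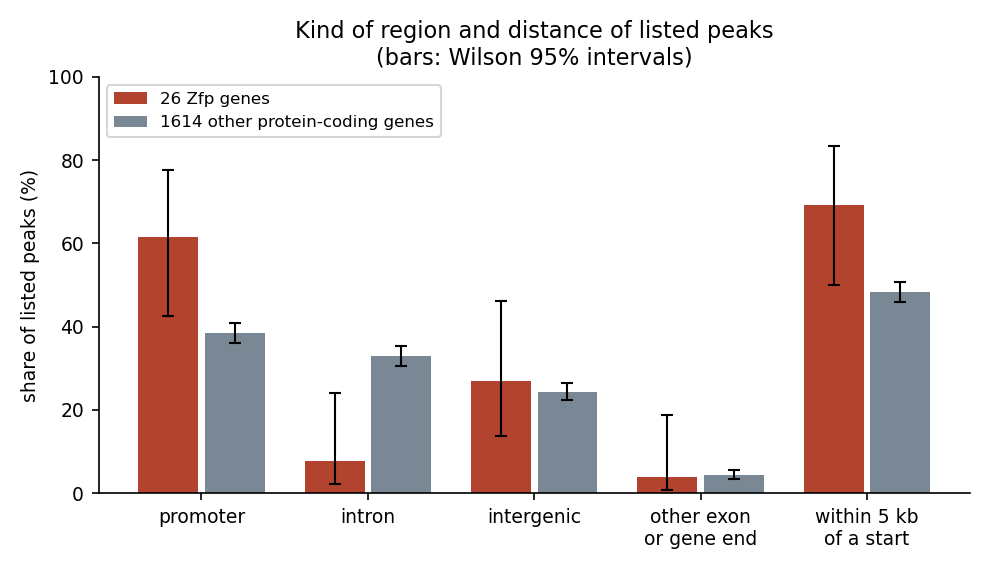
Share of listed peaks in percent by kind of region, and within 5 kb of a transcription start, for 26 Zfp genes (red, left bar of each pair) and 1614 other protein-coding genes (grey), with Wilson 95% intervals. The promoter bar stands at 61.5% for Zfp genes and 38.4% for the others, and the intron bar at 7.69% and 32.9%.

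Zfp peaks were either very near to a start or far from any. The median distance was 132 bp for Zfp peaks and 6.36 kb for the other peaks, and 18 Zfp peaks lay within 1 kb of a start, 8 of them within 100 bp. No Zfp peak lay between 900 bp and 13.6 kb. Within 5 kb of a start lay 69.2% (50.0 to 83.5%) of Zfp peaks and 48.3% (45.9 to 50.8%) of the other peaks, an odds ratio of 2.41 (1.03 to 5.27) that missed the threshold after adjustment (Fisher's exact test, p = 0.0463, adjusted p = 0.0772). With a limit of 1 kb in place of 5 kb the ratio was 3.15 (1.34 to 6.90, Fisher's exact test, adjusted p = 0.0198). Against the 17 genes of the other zinc finger prefixes, 11 of which (64.7%) had a peak within 5 kb, the ratio was 1.23 (interval 0.349 to 4.33, same exact test, adjusted p = 1). With 50 kb and all other genes it was 1.21 (interval 0.439 to 2.90, same exact test, adjusted p = 1).

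Among promoter peaks alone the median distance from the start was 91 bp for Zfp genes and 87 bp for other genes. Of Zfp promoter peaks 81.2% lay upstream of the start, and of the other promoter peaks 83.5%. Outside promoters the median was 87.1 kb for the 10 Zfp peaks and 30.5 kb for the 994 other peaks. Distances above 100 kb were found for 5 of 26 Zfp peaks (19.2%) and for 220 of the other peaks (13.6%).

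**Figure D2:**
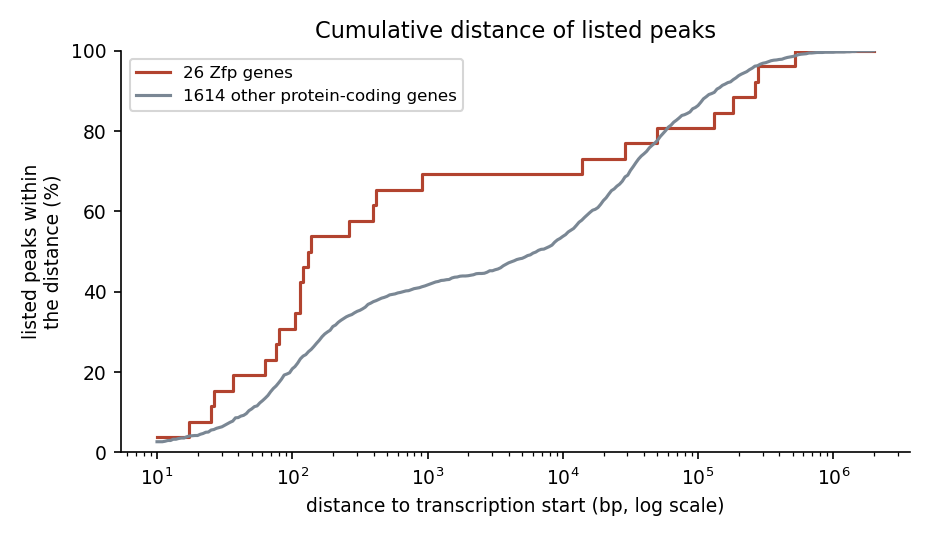
Share of listed peaks in percent (vertical axis) that lie within a given distance of a transcription start (horizontal axis, bp, log scale), for 26 Zfp genes (red) and 1614 other protein-coding genes (grey). The Zfp curve is flat at 69.2% between 900 bp and 13.6 kb, and the curve of the other genes climbs through that range.

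The promoter peaks belonged mainly to KRAB genes. A KRAB A-box, searched in the curated RefSeq protein by 3 patterns of which 2 were added after the first had missed known boxes, was found in 14 of the 26 Zfp proteins. Of the 16 genes with a promoter peak 12 carried it (75.0%), and of the 10 genes with a peak elsewhere 2 did (Zfp287 and Zfp583). The median distance was 88.5 bp for the 14 KRAB genes and 24.6 kb for the 12 genes without a match. A KRAB match was found in 53.8% of Zfp genes with a peak and in 216 of the 372 Zfp proteins without one (58.1%). The first pattern alone found 9 of the 26, of which 8 had a promoter peak.

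The nearest peaks to a start were those of Zfp748 and Zfp65, KRAB genes of 23 and 9 finger matches in one cluster of chromosome 13. The Zfp748 peak was at position 67553162, 10 bp upstream of the start, and the Zfp65 peak at 67729156, 17 bp downstream of its start. The 2 peaks lay 175994 bp apart with 22 other Zfp genes within 500 kb of Zfp748, and each promoter faced a start on the opposite strand, 9430065F17Rik at 50 bp from that of Zfp748 and Zfp85os at 89 bp from that of Zfp65. Such divergent promoters share their sequence between 2 genes, so the peak cannot be assigned to one of them.

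A second neighbouring pair, Zfp112 and Zfp108, lay 142423 bp apart on chromosome 7. The Zfp112 peak (24112257) was 63 bp upstream of its start and the Zfp108 peak (24254680) 114 bp upstream. Both encode KRAB proteins with 12 finger matches, and 11 other Zfp genes lay within 500 kb of each. Both windows held 2 copies of the ZNF143-type element, one of them 4 bp from the Zfp108 position and one 14 bp from the Zfp112 position.

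The other KRAB promoter peaks lay on several chromosomes, each with no other Zfp peak within 500 kb. All these genes but Zfp369 had other Zfp genes within 500 kb, from 2 at Zfp12 and Zfp113 to 14 at Zfp14. On chromosome 7, Zfp14 (30051422) had its peak 26 bp upstream, Zfp607b (27689376) 36 bp downstream and Zfp128 (12881068) 110 bp upstream of the start. The Zfp607b start used here (27689340) lies within the gene, whose span begins at 27674661. Zfp160 on chromosome 17 (21008916) had its peak 25 bp upstream, and Zfp846 on chromosome 9 (20581402) had it 74 bp downstream. On chromosome 5 the peaks of Zfp12 (143235060) and Zfp113 (138155864) lay 103 and 120 bp upstream. These genes encode proteins with 7 to 18 finger matches. Zfp369 on chromosome 13 (65278593) had its peak farther out, 261 bp upstream of a start that is not the outermost one of the gene. Its product, also called NRIF2, belongs to the proteins that bind the p75 neurotrophin receptor.

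The other 4 promoter peaks belonged to genes without a KRAB match. Zfp322a, a factor of embryonic stem cell pluripotency, had its peak on chromosome 13 (23369287) 79 bp upstream of the start. Zfp131, a BTB domain protein, had it on the same chromosome (119791259) 137 bp upstream of the nearest start. That start too is not the outermost one of the gene. Zfp407 on chromosome 18 (84589885) and Zfp384 on chromosome 6 (125008832), a nuclear matrix protein that binds runs of A and T, had peaks 381 and 406 bp upstream. These were the farthest from the start among the promoter peaks, and for Zfp384 the RefSeq annotation put the nearest start at 294 bp.

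**Figure D3:**
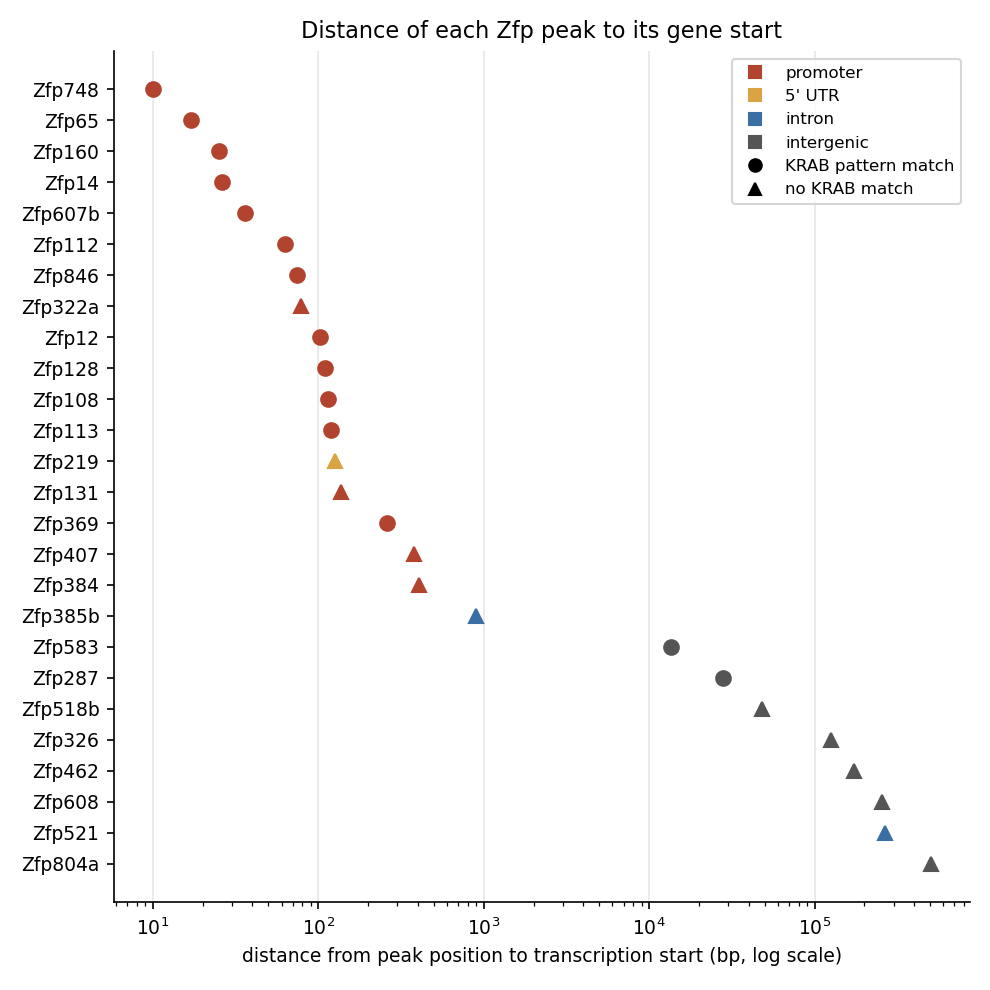
Distance in bp (horizontal axis, log scale) from the peak position to the transcription start for each of the 26 Zfp genes, coloured by kind of region, with circles for genes with a KRAB match and triangles for the others. The circles sit at or below 261 bp except Zfp583 and Zfp287, and the 6 genes beyond 40 kb are triangles.

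Zfp genes on a list of neural roles had their listed peaks outside the promoter span. Of 16 Zfp genes in a list of neural development or brain function, written with earlier results of these data known, 6 had a listed peak (37.5%, Wilson 95% interval 18.5 to 61.4%). None of these 6 listed peaks was at a promoter. Except for Zfp804a, each had a peak number with no row next to its own, so further peaks of these genes may be missing. Peak numbers of the Zfp rows rose with position along each chromosome. For Zfp462 and Zfp608 numbers were missing only after the peak, on the side away from the start. In that order, a missing peak could lie at the promoter of Zfp219, Zfp287 or Zfp521 only. Over all protein-coding genes 7.49% had a listed peak. Because of how the list was written, this share and the 37.5% cannot be set against each other. Zfp219, a partner of SOX9, had its peak in the 5′ untranslated exon on chromosome 14 (52019586), 127 bp downstream of the start and thus just outside the promoter span. Zfp287, a KRAB protein with 14 finger matches, had an intergenic peak on chromosome 11 (62756997), 27.9 kb upstream of the listed start and 25101 bp from the nearest RefSeq start.

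The remaining 4 of that list had the 4 longest distances of all Zfp peaks. Zfp462, whose human counterpart is mutated in a neurodevelopmental disorder, had an intergenic peak on chromosome 4 (55122145), 174.2 kb downstream of the start and beyond the end of the gene. Zfp608 had an intergenic peak on chromosome 18 (55248303), 255.7 kb upstream of its start. Zfp521, which drives neural fate in mouse embryonic stem cells, had a peak in its last intron on chromosome 18 (13707351), 265.4 kb from its start, and the start of Gm36747 was nearer at 198960 bp. Zfp804a, whose human counterpart lies at a schizophrenia risk locus, had the most distant peak, in intergenic sequence of chromosome 2 (81549362) 504.3 kb upstream. The gene named for a peak was that of the nearest start as annotated by the authors, which for Zfp521 differed from the nearest RefSeq start. Which gene a peak acts on at such distances was not measured.

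The other peaks outside promoters belonged to genes of mixed roles. Zfp385b, of a family with RNA-binding matrin-type fingers, had its peak in the first intron on chromosome 2 (77815916), 900 bp from the start. Zfp583, a KRAB gene in a chromosome 7 cluster, had an intergenic peak (6343993) 13.6 kb upstream. Zfp518b and Zfp326 on chromosome 5 had intergenic peaks (38636576 and 106002547) 48.2 and 126.0 kb downstream of their starts and outside the genes. Zfp326 encodes a protein of messenger ribonucleoprotein particles that affects splicing.

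The share of Zfp genes with a listed peak was near that of all protein-coding genes. Of 400 protein-coding Zfp genes in RefSeq 26 had a listed peak, or 6.50% (4.47 to 9.35%), against 7.49% of all protein-coding genes. At promoters the count was 16 of 400 (4.00%), against 2.90% of all protein-coding genes. With a KRAB match 14 of 230 genes had a peak (6.09%, 3.66 to 9.96%), 12 of them at the promoter, and without one 12 of 168 did (7.14%, 4.13 to 12.1%), 4 of them at the promoter. Genes of other DNA-binding zinc finger prefixes (Zbtb, Zkscan, Klf, Zic and the like) had a peak in 17 of 138 cases (12.3%, 7.84 to 18.8%), 7 at the promoter. The interval for Zfp genes overlapped that of these families, and no test of the difference was made. The prefix search also took Glipr1, which is not a zinc finger gene, into the 17, and these 17 also served for the odds ratios above. The Gli prefix matched 11 of the 138 genes, so the 138 may hold further genes that are not zinc finger genes.

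Among those families the Zbtb genes had a peak in 7 of 41 cases (17.1%, 8.53 to 31.3%), the Klf genes in 4 of 17 (23.5%, 9.55 to 47.3%) and the Zscan genes in 0 of 16 (upper limit 19.4%). The RING finger genes named Rnf or Trim, which encode ubiquitin ligases and do not read DNA through these domains, had a peak in 11 of 85 (12.9%) and 8 of 70 (11.4%). The Rnf and Trim searches also took 1 gene each, Rnft1 and Triml1, whose symbol continues the prefix with a letter in place of a number. Lists of Zfp genes for RNA-binding CCCH proteins (4 genes), GATA cofactors (2 genes) and imprinting or retroelement control (6 genes) had no listed peak. Of 10 pluripotency and growth regulators 2 had one, Zfp131 and Zfp322a.

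**Figure D4:**
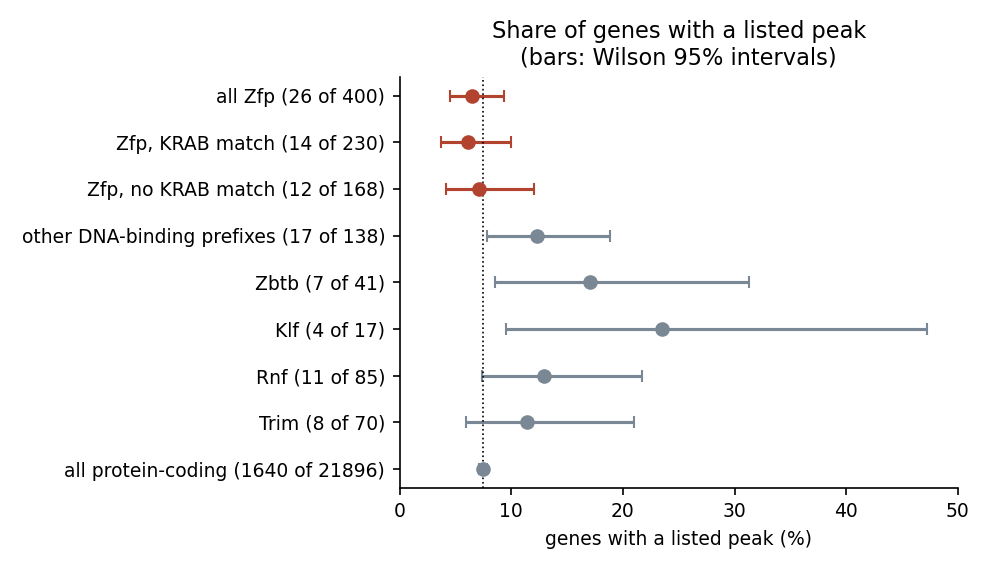
Percent of protein-coding genes with a listed peak (horizontal axis), with Wilson 95% intervals, for Zfp genes (red) and for other zinc finger and RING finger prefixes and all protein-coding genes (grey), with the dotted line at 7.49%. The Zfp intervals include the dotted line, and those of Zbtb and Klf lie above it at 17.1% and 23.5%.

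Peaks of clustered Zfp genes were mostly at promoters. Of 271 Zfp genes with another Zfp gene within 500 kb, 13 had a peak (4.80%), 11 of them at the promoter. Of 129 Zfp genes with no such neighbour, 13 had one (10.1%), 5 of them at the promoter. KRAB matches were found in 206 of the clustered and in 24 of the isolated genes, so the 2 properties overlapped in large part. All 13 clustered genes with a peak had a KRAB match (13 of 206, 6.31%), and of the 63 clustered genes without a match none had a peak (upper limit 5.75%, Wilson). Of the isolated genes, 1 of 24 with a match (Zfp369) and 12 of 105 without one (11.4%, 6.66 to 18.9%) had a peak. These counts were not tested against each other. Chromosome 7, with 93 Zfp genes, had 6 of the peaks, and chromosome 13, with 37, had 5. Chromosome 17 had 1 peak for 46 Zfp genes, whereas chromosomes 5 and 18 had 4 for 19 and 3 for 11. No Zfp peak was listed on 9 chromosomes that together hold 77 Zfp genes, among them chromosome 8 with 26, chromosome 15 with 12 and the X chromosome with 9. Of the 1614 other peaks, 118 were on chromosome 7, 65 on 13, 72 on 17, 115 on 5 and 56 on 18. Chromosomes 8 and 15 had 84 and 65 of them, and the X chromosome had 15. The share of Zfp genes with a peak over all chromosomes was 6.50%. Counts per chromosome were small and were not tested. The authors removed reads that map to more than 1 place, and how far this touched recent duplicates was not tested.

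Finger number varied widely among the Zfp proteins with a peak. The C2H2 pattern matched 1 to 33 times in a protein, with a median of 10.5 for the 26 genes with a peak and 10 for the 372 without. Promoter peaks belonged to proteins with a median of 12 matches and the other peaks to proteins with a median of 6.5. The proteins with 1 match were those of Zfp608, Zfp804a and Zfp326, and all 3 genes had an intergenic peak. The highest counts were those of Zfp462 (33) and Zfp521 (27), which have no KRAB match.

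The ZNF143-type element was present at 6 of 16 Zfp promoter peaks (37.5%) and 7.90% of the 620 other promoter peaks, in the 200 bp around the position. In RefSeq promoter windows of the same length it was in 54 of 403 Zfp promoters (13.4%) and in 2.13% of all 21262 promoters. Of the 12 KRAB promoter peaks 6 had it, and all 7 Zfp peaks with the element belonged to KRAB genes. In all 7 the nearest copy lay within 30 bp of the listed position, as it did for 15 of the 54 other peaks with the element (27.8%). The 30 bp limit was not planned and equals the distance at Zfp65, and the element was picked after sequences of these peaks had been read. The 2 shares therefore cannot be set against each other. The intergenic peak of Zfp583 was the exception to the promoter location, where 0.503% of the other peaks outside promoters held the element. ZNF143 itself was not measured.

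The ETS core CCGGAAG, on either strand, was present at 6 Zfp peaks, those of Zfp65, Zfp112, Zfp14, Zfp160, Zfp369 and Zfp384, all at promoters (37.5% of 16). It was present at 17.7% of the other promoter peaks, at 19.6% of RefSeq Zfp promoters and at 9.98% of all promoters. At Zfp384 2 copies lay 1 and 4 bp from the position. Either the ETS core or the ZNF143-type element was found at 9 of the 16 promoter peaks, and both at 3 (Zfp65, Zfp112 and Zfp14).

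The GC box GGGCGG, the core read by SP and KLF factors, was at 7 of 16 Zfp promoter peaks (43.8%) and 51.9% of the other promoter peaks, and at 42.4% of all RefSeq promoters. None of the 7 held a ZNF143-type element. Zfp promoter windows had fewer CpG sites, with a median of 10 against 14 at the other promoter peaks, and a median GC content of 54.8% against 61.5%. Zfp113 and Zfp128 were the 2 promoter peaks with none of these 3 cores.

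**Figure D5:**
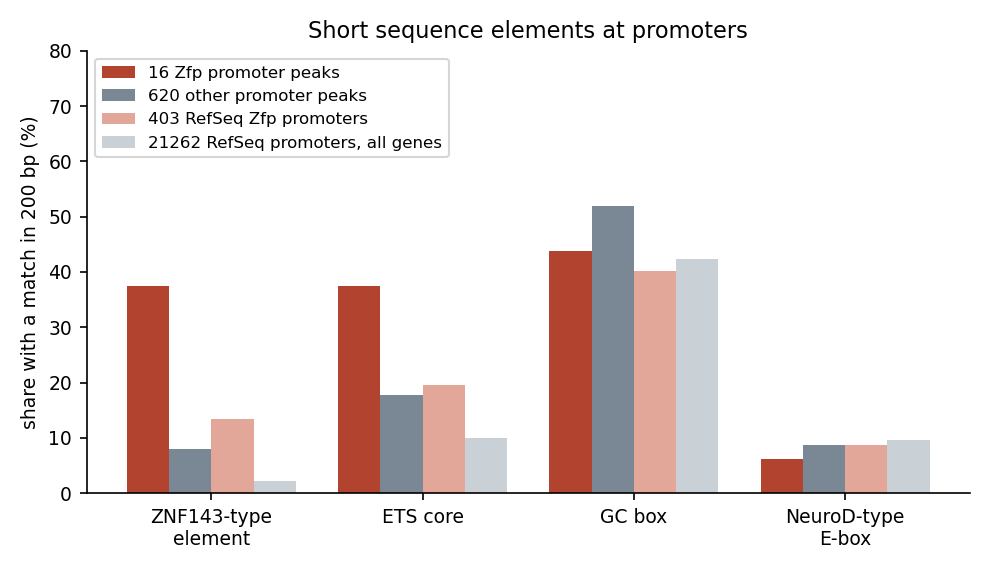
Percent of 200 bp windows with a match on either strand (vertical axis) for 4 elements, at 16 Zfp promoter peaks (red), 620 other promoter peaks (dark grey), 403 RefSeq Zfp promoters (pale red) and 21262 RefSeq promoters of all genes (pale grey). The ZNF143-type element stands at 37.5%, 7.90%, 13.4% and 2.13% in this order, and the NeuroD-type E-box at no more than 9.63% in any of the 4 sets.

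The NeuroD-type E-box CATCTG lay at 7 of 26 Zfp peaks (26.9%) and at 34.9% of the other protein-coding peaks, in the 200 bp around the position. In the central 100 bp it lay at 4 of the 26 (15.4%). Among promoter peaks it was at 1 of 16 for Zfp genes, that of Zfp607b, and at 8.71% for other genes. Outside the promoter span it was at 6 of 10 Zfp peaks and 51.3% of the others. These 6 were Zfp219, Zfp385b, Zfp462, Zfp518b, Zfp521 and Zfp608, none of which has a KRAB match. The E-box lay 10 bp from the position at Zfp219, 14 bp at Zfp608, 18 bp at Zfp385b, 23 bp at Zfp462, 54 bp at Zfp521, 77 bp at Zfp607b and 93 bp at Zfp518b. It was within 30 bp for 4 of the 7 Zfp peaks with the E-box (57.1%) and for 49.8% of the other peaks with it. The longer CCATCTG was at 5 of the 10 Zfp peaks outside the promoter span and 43.7% of the others. The intergenic peaks of Zfp287, Zfp326, Zfp583 and Zfp804a held no E-box of this spelling in the window.

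CAGCTG, another E-box, was at 3 Zfp peaks (11.5%) and 11.3% of the others. All 3 were promoter peaks, those of Zfp131, Zfp14 and Zfp607b (3 of 16, 18.8%, against 8.23% of the other promoter peaks). None of the 10 Zfp peaks elsewhere held it, against 13.3% of the others there. The C-rich core CCACCC, close to published RREB1 sites, was at 4 (15.4%) and 19.0%. AAGATGGC, the YY1 core, was at 1 Zfp peak, that of Zfp518b, and at 2.48% of the others. GCGCATGC (NRF1) and TGACGTCA (CREB) were at none of the 26 Zfp peaks, and at 2.23% and 1.05% of the other peaks. CATCTG is contained in CCATCTG, and the remaining spellings were searched on their own.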

How the data were processed

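RREB1-3V5 ChIP-seq had been done on cerebellum of 2 transgenic mice with 1 input library each. Groups came from the sample labels. In the study's methods, fastp trimming was followed by Bowtie2 alignment to mm10 and by removal of duplicates and multimappers in Sambamba. The authors then called peaks in MACS3 (q-value of 0.05) and joined those that overlapped using bedtools. Per the file header, HOMER annotatePeaks then annotated the merged peaks. Their versions were not given in the sources used. The deposited table holds other values than counts or signal, namely position in bp, peak number and signed distance in bp, with no depth, height or replicate.

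Positions were read on GRCm38, which has the coordinates of mm10, with RefSeq genes, promoters and coding sequences. The nearest RefSeq start belonged to the same gene for 25 of 26 Zfp peaks, the class agreed for 26 and the distance for 24. Shares have Wilson 95% intervals. Kind of region and distance were compared by two-sided Fisher's exact test with Benjamini-Hochberg adjustment over 5 tests (threshold 0.05), and odds ratio intervals used 0.5 added to every cell. These tests treat genes as independent, which clustered genes are not. All else is description with no test. Motifs were searched in 200 bp around the position, and in RefSeq promoters from 150 bp before to 50 bp after the start. Proteins were translated from the RefSeq coding sequences, of which 398 of 400 Zfp genes had a curated one. The C2H2 pattern was C, 2 to 4 residues, C, 12 residues, H, 3 to 5 residues, H. Any member could be named, with position and distance for promoter peaks within 100 bp, the nearest and farthest of the rest and all genes of the role lists, and in the end all were. The members and lists were chosen with earlier results of these data known. Alternatives covered gene type, clusters, the comparison families, the annotation and distance limits. The tests were tested on simulated data. Python 3.11.15, pandas 2.3.3, SciPy 1.17.1, Biopython 1.88 and matplotlib 3.10.9 were used.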

Additional observations from a re-analysis of the deposited data

How the results depend on the processing

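Of 30 alternatives to the tested shares, 25 stayed on the same side of the threshold, 4 passed it, 1 lost the call and none reversed a called direction. With rows of any gene type the promoter odds ratio was 2.78 (adjusted p = 0.0320, Fisher's exact test) and that within 5 kb was 2.57 (adjusted p = 0.0323), so both passed. Counted within 1 kb either side of the start, both shares became the same comparison, with a ratio of 3.15 (adjusted p = 0.0198, same exact test). It is counted under each share among the 4 that passed. Against the 17 genes of other DNA-binding zinc finger prefixes the intron ratio was 0.625 and the call was lost, with 17 genes in place of 1614. The promoter ratio against those genes was 2.29 and the ratio within 5 kb 1.23 (adjusted p = 1 for both, exact test). The other 6 alternatives concerned shares with no test. The E-box share was 15.4% in the central 100 bp, against 26.9% in 200 bp. With promoter peaks only, the share of RefSeq Zfp genes with a peak was 4.00%. With 1 gene kept per run of Zfp peaks less than 500 kb apart, the promoter ratio was 2.25 (adjusted p = 0.143) and the intron ratio 0.185 (adjusted p = 0.0405, exact test). The promoter ratio ranged from 1.69 to 3.15 over 7 alternatives. The union of 3 KRAB patterns, chosen after seeing the data, found 53.8% of Zfp proteins with a peak, against 34.6% by the first pattern. No paired analysis was possible because the merged table has no values per library, and for the same reason no animal could be left out. Depth and peak height are not in the table, so no result could be weighed by them.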
